A study of Mus musculus with 6 samples.

Results

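The loci of the giant sarcomere genes Ttn (titin) and Neb (nebulin) were examined for H3K27ac, histone H3 acetylated at lysine 27, a mark of active promoters and enhancers. The members were the H3K27ac peaks that overlapped a window on chromosome 2 of mouse build mm9 by at least 1 bp. The Ttn window ran from 76530000 to 76840000 (310 kb) and the Neb window from 51980000 to 52260000 (280 kb). Together they held 58 of the 243962 peaks in the lists of 3 stages. The Ttn window had 0 peaks in proliferation, 4 at 36 h and 7 at 72 h of differentiation, and the Neb window had 5, 15 and 27.

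All libraries came from C2C12, an established mouse myoblast line that exits the cell cycle and fuses into myotubes when differentiated, and the groups were cells in proliferation and cells differentiated for 36 h or for 72 h. The series concerns TAp63, a p53-family transcription factor, in myogenesis, and the labels of these samples name no genetic change and no treatment other than the stage. The 6 samples comprised 1 H3K27ac and 1 input library (chromatin without immunoprecipitation) per stage, and each H3K27ac library held DNA pooled over 4 ChIP assays. With 1 library per stage no test between stages was possible, and every difference below describes 3 libraries. A culture at 36 h or 72 h can hold fused and unfused cells, so more acetylated cells and more acetylation per cell cannot be told apart. No mm9 gene annotation was used. The labelled cell type was therefore not checked against marker genes, and peaks were not assigned to exons, introns or transcription starts.

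Titin runs through the sarcomere from the Z-disc to the M-band, where it acts as a spring and as a scaffold for thick filament assembly. Nebulin lies along the thin filament of skeletal muscle and stabilises its length. Both are products of terminal muscle differentiation, and the transcription factors of the MyoD and MEF2 families, which bind E-boxes and MEF2 sites, act at many genes of this programme. In the order of protein-coding genes in RefSeq GRCm38.p6, Ttn lies between Plekha3 and Ccdc141, and Neb between Rif1 and Arl5a. Ttn is read from the minus strand in the RefSeq promoter table. Its start therefore lies towards the higher coordinates, at the end of its window where nearly all peaks were found. As background, Neb is also read from the minus strand in the mouse.

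The bases before the Ttn start are shown because the strongest Ttn peaks lay at the window end towards which that start points. The sequence is the 250 bases before the start in RefSeq GRCm38.p6, chr2:76982548-76982797, minus strand, written 5′ to 3′. This build is not that of the peaks, positions were not converted, and the sequence was not placed under a peak. The capitals mark matches to the MEF2 site and to the E-box.
Ttn promoter: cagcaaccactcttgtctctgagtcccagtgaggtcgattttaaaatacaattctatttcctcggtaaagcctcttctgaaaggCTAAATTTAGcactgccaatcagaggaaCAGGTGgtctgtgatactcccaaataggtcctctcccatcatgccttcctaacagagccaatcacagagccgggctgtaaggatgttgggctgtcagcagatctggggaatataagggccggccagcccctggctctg

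Both strands were searched. The single MEF2 site match, CTAAATTTAG, begins 166 bases before the start, and 0.508% of 32851 promoter sequences of the same length held a match to this motif. The single E-box match (CANNTG) was CAGGTG, 138 bases before the start, a motif with a match in 66.2% of promoters. The E-box CAGCTG, a subset of CANNTG, and the TATA box TATAAA had no match in this window, nor had the CArG box or the p53-family decamer. They were matched in 13.0%, 12.4%, 1.47% and 7.13% of promoters. These matches describe letters and not binding. Of the 2 genes, 1 (Ttn) had an entry in the promoter table.

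Values between stages were compared as summit fragments, the number of ChIP fragments covering a peak's highest point, recovered from the deposited fold and p-value of each peak. They are given as recovered or divided by the relative ChIP depth, which was 1.20 at 36 h and 1.10 at 72 h against 1 in proliferation. Intervals are exact 95% Poisson intervals for counting error only. The local background, the pileup expected without enrichment, had a median of 1.93 times the genome background at proliferation peaks over the whole genome. At 36 h and 72 h this median was 1.06 and 1.15 times. As pileups these medians were 1.96, 1.32 and 1.25 in the order of the stages, low values for which no interval was computed. The lists held 57101, 89717 and 97144 peaks, so the list of 72 h was 1.70 times and that of 36 h 1.57 times as long as that of proliferation.

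At Ttn, H3K27ac peaks were listed in differentiating cells and none was listed in proliferating cells. Peaks covered none of the window in proliferation. They covered 5.66 kb (1.83% of the window) at 36 h and 6.83 kb (2.20%) at 72 h. Tiles of the same length over the genome give a measure of how common this is. Of 8655 such tiles, 4.01% had no peak in proliferation and peaks at both later stages. In the same tiles the median length under peaks was 0.901 kb for proliferation, 1.49 kb for 36 h and 2.20 kb for 72 h. The Ttn window exceeded 68.2% of tiles at 36 h and 67.6% at 72 h. Among the 3416 tiles without a proliferation peak, 16 (0.468%) had at least as much under peaks as Ttn at 36 h. At 72 h, 34 (0.995%) did. Only 347 of these 3416 tiles had peaks at both later stages, as Ttn did. Tiles that were empty at a later stage could not reach its length there. The window had 1.17 kb more under peaks at 72 h than at 36 h, a direction seen in 47.8% of tiles. The 33.2% of tiles without a peak at 72 h could not show this direction. With the lists made equal in number the difference at Ttn was -2 bp, from 5658 bp at 36 h to 5656 bp later. In that setting 3 peaks were left at 72 h. In a window widened by 50 kb at each end there were 10, 24 and 34 peaks at the successive stages.

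**Figure D1:**
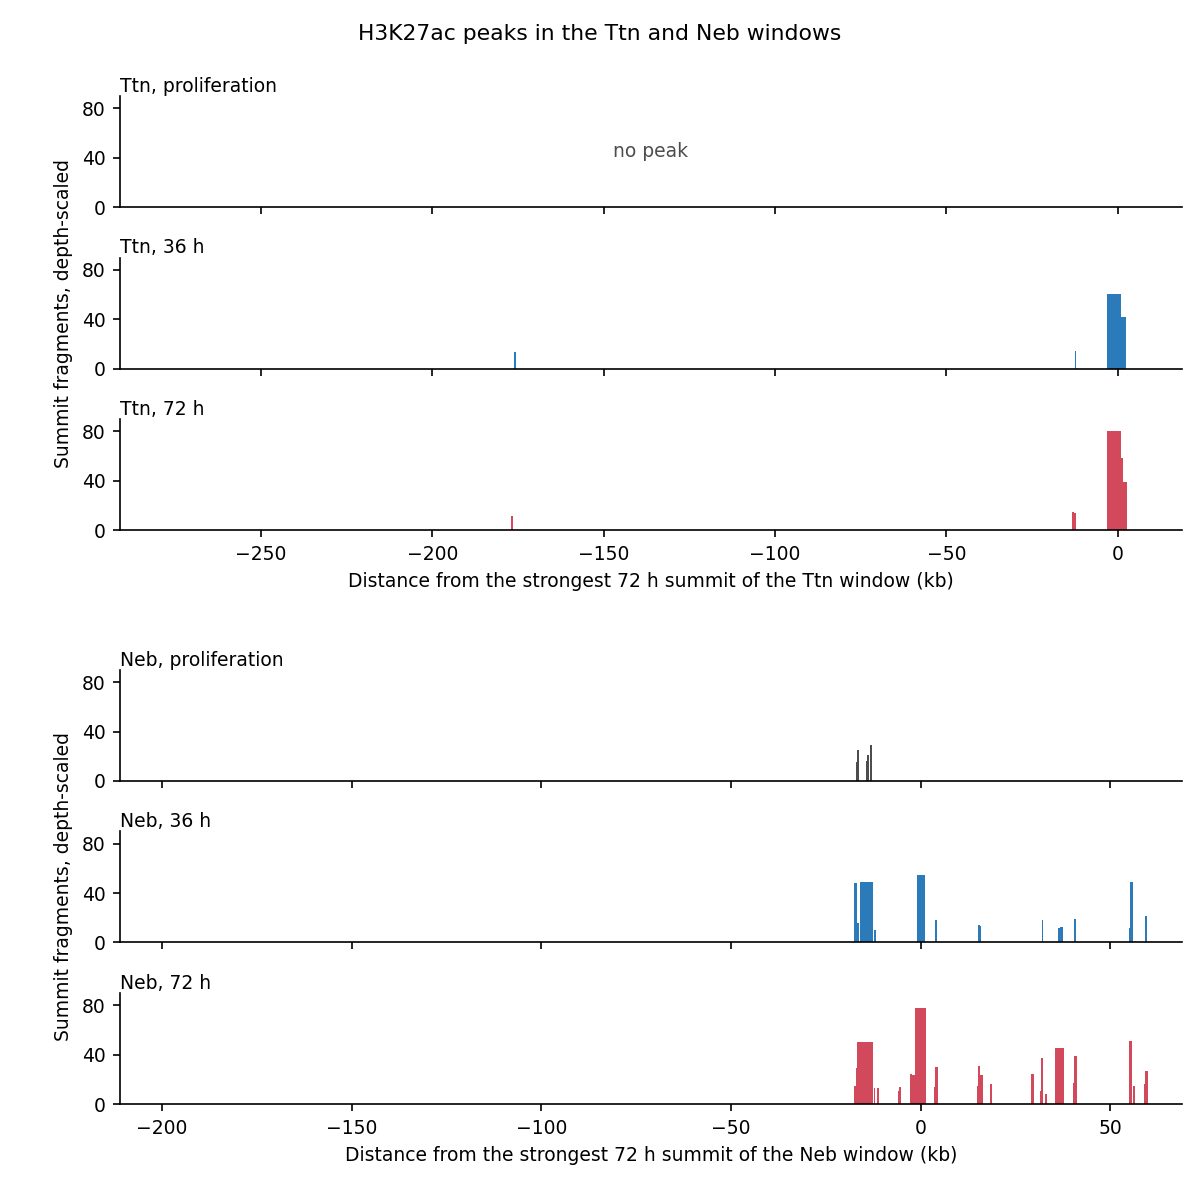
Peaks across the whole Ttn window (310 kb) and Neb window (280 kb) at each stage. The x axis is the distance in kb from the strongest 72 h summit of the window, and bar height is the number of summit fragments divided by relative ChIP depth. The Ttn track of proliferation is empty, and most peaks of both windows sit towards the right-hand end.

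The Ttn peaks were concentrated at the upper end of the window. The last 40 kb held 95.0% of the length under peaks at 36 h and 95.3% at 72 h. The first 114 kb of the window had no peak at any stage, and a further 163 kb without peaks separated the isolated peaks in the middle of the window from this upper cluster. Of the 31 bins of 10 kb, 4 held a peak at 36 h and 4 at 72 h. Most of the window was therefore without a listed peak at every stage. The nearest peaks below its lower edge were 14.3 kb away in proliferation and 4.97 (36 h) and 4.26 kb (72 h) away later.

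Peaks that overlapped across the 3 lists were joined into regions, numbered here by position within their window. Ttn had 7 regions, and the widest, Ttn region 6, spanned 3999 bp from 76818093 to 76822091. It was a single peak at each later stage, of 3814 bp (36 h) and 3999 bp (72 h), both wider than at least 99.2% of their lists. Its summit had 72 fragments at 36 h (interval 56.3 to 90.7) and 88 at 72 h (70.6 to 108), or 60.2 and 80.2 after division by depth. The depth-scaled ratio of 1.33 lies within overlapping counting intervals. Its summits at the 2 later stages were 988 bp apart within this broad region. In its own list the peak had a fold of 10.2 at 36 h, above 80.4% of peaks, and of 22.5 at 72 h, above 97.1%. Its local background was 3.19 times the genome background at 36 h and 1.49 times at 72 h.

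Ttn region 7 adjoined it, from 76822178 to 76823878. There were 50 summit fragments at 36 h and 64 at 72 h, or 41.8 and 58.3 per unit of depth, with intervals of 31.0 to 55.1 and 44.9 to 74.4 that overlap. These summits were 564 bp apart, and the region was 1 peak at 36 h and 2 peaks at 72 h. The second peak of 72 h, from 76822731 to 76823878, had 43 fragments, or 39.2 per unit of depth, slightly fewer than the 36 h peak it overlapped. Higher depth-scaled fragments at 72 h were therefore seen in one part of region 7 and not in the other. The nearest proliferation peak lay 34.2 kb beyond it, outside the window, and was a short peak of 147 bp with 14 fragments.

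The remaining Ttn regions were weak. Region 5, from 76808620 to 76809068, was called at both later stages with the same summit position and had 17 fragments at 36 h and 15 at 72 h. Beside it, region 3 (76807781 to 76807979) and region 4 (76808058 to 76808259) were called at 72 h only, each with 16 fragments. In the middle of the window, region 2 (76644981 to 76645261) was called at 36 h only, with 16 fragments, and region 1 (76644094 to 76644413) at 72 h only, with 13. Regions 1 and 2 lay 0.567 kb apart, so the calls of a single stage there were neighbours and did not overlap. Per unit of depth these 5 regions had 11.8 to 14.6 fragments, and the 3 called at 72 h only were not listed at 36 h.

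Of the 7 Ttn regions, 3 were called at 36 h and 72 h and not in proliferation, 3 at 72 h only and 1 at 36 h only. The background percentages of these classes among all 112926 regions were 22.3%, 23.9% and 15.9%. No Ttn region was called in proliferation, and 37.9% of all regions were.

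**Figure D2:**
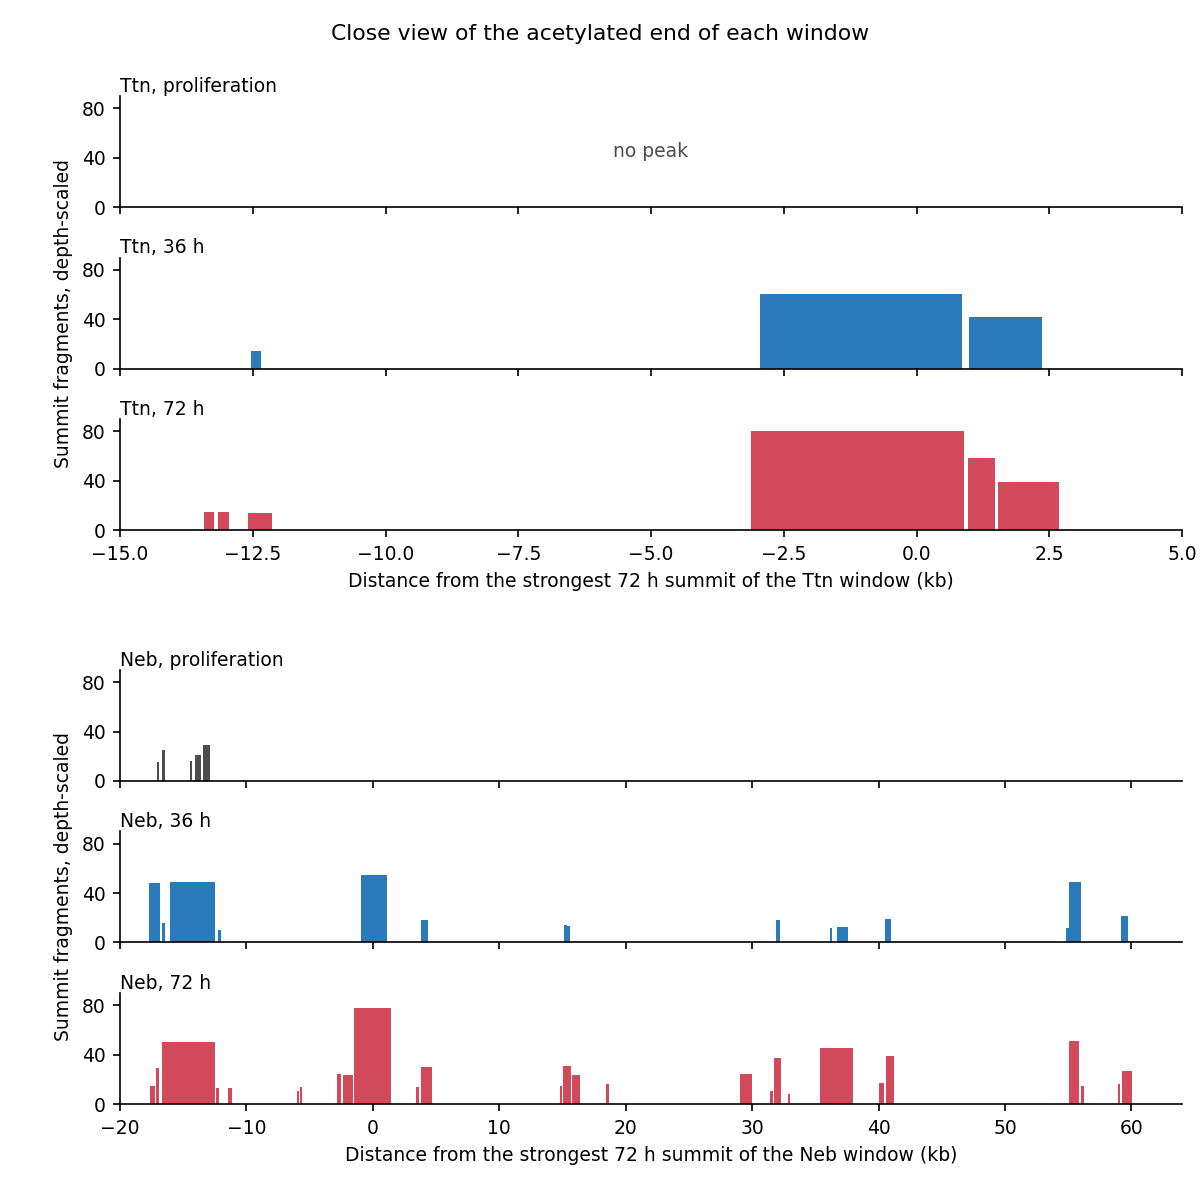
Close view of the upper part of each window that holds most peaks (x axis, kb from the strongest 72 h summit; bar width, the peak's length; bar height, depth-scaled summit fragments). At Ttn, the broad peaks of 36 h and 72 h coincide at 3814 and 3999 bp, and at Neb the peaks of 72 h fill in between those of 36 h.

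At Neb, peaks were present in proliferation, and their number and the total length under them were higher at each later stage. The Neb peaks of proliferation had a median width of 236 bp. This width was 508 bp among the peaks of 36 h and 356 bp among those of 72 h. These medians are over different sets of peaks and do not compare the same regions. Most Neb regions called at both later stages had more bp under peaks at 72 h than at 36 h, and regions 1 and 24 had fewer. Peaks covered 1.56 kb of the window (0.558%) in proliferation. They covered 11.2 kb (4.01%) at 36 h and 19.9 kb (7.09%) at 72 h. Relative to proliferation the length was 7.19 times as long at 36 h and 12.7 times at 72 h, and 50.1% and 57.4% of all 280 kb tiles had more under peaks at these stages than in proliferation. Over all peaks of the genome, the corresponding ratios were 1.79 and 2.03. Of 5628 tiles of the same length with a proliferation peak, 3.55% had a ratio at least as high at 36 h and 2.61% at 72 h. At 72 h the Neb window had more peaks than 87.6% and more length under peaks than 89.7% of all 9585 tiles, while in proliferation its length under peaks exceeded that of 58.9%. From 36 h to 72 h the length rose 1.77 times, a direction seen in 46.6% of all tiles. The 3351 tiles without a peak at 72 h could not show this direction, nor more length at 72 h than in proliferation. Likewise, the 3713 tiles without a peak at 36 h could not show more length at 36 h than in proliferation. The shares of all 280 kb tiles given here count such empty tiles. Stricter cutoffs left 2 or 3 Neb peaks in proliferation, 10 at 36 h and 15 or 16 at 72 h. The order of the stages in number and length of Neb peaks was the same in each alternative setting run on them.

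**Figure D3:**
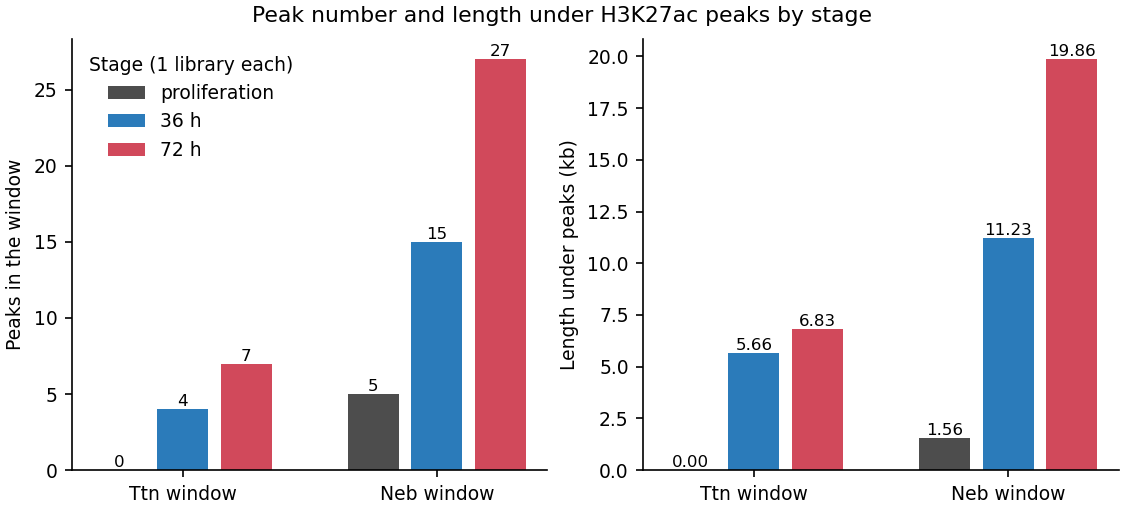
Number of peaks (left) and length under peaks in kb (right) in the Ttn and Neb windows, with 1 library per stage and therefore no error bars. Ttn goes from 0 to 4 and 7 peaks, and Neb from 5 to 15 and 27 peaks with 1.56, 11.2 and 19.9 kb.

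All Neb peaks of all stages fell in the last 90 kb of the window. The first 193 kb had none at any stage. In proliferation the 5 peaks lay within 4.19 kb, from 52173980 to 52178173, in 1 of 28 bins of 10 kb. Peaks occupied 7 bins at 36 h and 8 at 72 h. The early site therefore lies at the lower edge of the stretch that was under peaks later, and the added length lay towards higher coordinates. The site of the proliferation peaks held 100% of the length under Neb peaks in that stage. Its 10 kb bin held 42.8% of the length at 36 h and 26.9% at 72 h, although the bin's own length under peaks was 1.56, 4.81 and 5.35 kb at the successive stages.

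Nearly every base under a Neb peak in proliferation was also under one later. The shared bases were 97.0% of the proliferation length at 36 h and 99.3% at 72 h, compared with 75.7% and 80.9% over the genome. In the other direction, 13.5% of the 36 h length and 7.82% of the 72 h length had been under a proliferation peak, compared with 42.3% and 39.8% over the genome. Of the 36 h length, 94.1% was under a peak at 72 h, and of the 72 h length 53.2% was under a peak at 36 h. At Ttn the shares between the later stages were 94.3% of the 36 h length and 78.1% of the 72 h length. The genome values for these stages were 78.4% and 69.0%.

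The site called at all stages consisted of 2 regions. Neb region 2, from 52174409 to 52178606, was the widest of the window at 4198 bp. It held 4 short peaks with 1406 bp in proliferation and 2 peaks with 3795 bp at 36 h. At 72 h it was a single peak of 4187 bp, wider than 99.4% of that list. Its strongest summit had 29 fragments in proliferation (19.4 to 41.6), and per unit of depth 49.4 at 36 h (37.6 to 63.7) and 50.1 at 72 h (37.7 to 65.2). These were 1.70 and 1.73 times the value of proliferation, with overlapping intervals, so length differed between the stages more than summit height. The strongest summits of 36 h and 72 h were 2662 bp apart, towards opposite ends of the region.

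Neb region 1, from 52173412 to 52174233, had 15 fragments in proliferation (8.40 to 24.7). Per unit of depth it had 48.5 at 36 h (36.8 to 62.7) and 29.1 at 72 h (19.9 to 41.1). The interval of 36 h lies above that of proliferation, with a ratio of 3.23. Over the genome, 5.12% of the 30823 regions called at both stages had an interval at 36 h above that of proliferation. At 72 h the ratio was 1.94 with overlapping intervals (9.66% of 33371 regions over the genome had an interval at 72 h above that of proliferation). Region 1 was the only region, among the 11 Neb regions called at both later stages, with fewer depth-scaled fragments at 72 h than at 36 h. The intervals of those 2 stages overlap.

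Local background differed beside these values. The 5 Neb peaks of proliferation had 1.31 to 2.97 times the genome background (median 1.98). The median was 1.06 times for the 15 peaks of 36 h and 1.36 times for the 27 peaks of 72 h. With the depth and the background of the later peaks brought to those of proliferation, Neb kept 14 of 15 peaks at 36 h and 24 of 27 at 72 h, and Ttn kept all 4 and all 7. The background percentage of peaks kept was 85.0% of the 36 h list and 87.5% of the 72 h list, so the Neb shares were near those of the whole lists.

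Of the Neb regions new after proliferation, region 9 had the most summit fragments at both later stages, somewhat fewer than Ttn region 6. It ran from 52189586 to 52192494, with 65 summit fragments at 36 h (50.2 to 82.8) and 85 at 72 h (67.9 to 105). Per unit of depth these were 54.4 and 77.4 fragments with overlapping intervals, and the summits of the 2 stages were 8 bp apart. Within their lists the folds of 20.6 and 18.9 were above 96.0% and 95.0% of peaks. The nearest proliferation peak was 11.4 kb away, at the early site. Peak length at this region was 2068 bp at 36 h and 2909 bp at 72 h.

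Neb region 24, from 52246145 to 52247057, had the most similar values at the later stages among the strong new regions. Its 59 fragments at 36 h and 56 at 72 h were 49.4 and 51.0 per unit of depth, with summits 16 bp apart. The fold in its own list was 18.2 at 36 h and 9.44 at 72 h, where the local background was 1.06 and 2.77 times the genome background. Neb region 27, from 52250285 to 52251118, had 26 and 29 fragments. Regions 24 and 27 lay near the upper edge of the window, 32.4 and 28.4 kb from the nearest proliferation peak.

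Neb region 20 showed the widest difference between the later stages. It ran from 52226465 to 52229018 and was made of 2 peaks with 1014 bp at 36 h and 1 peak of 2554 bp at 72 h. The strongest summit had 15 fragments at 36 h (8.40 to 24.7) and 50 at 72 h (37.1 to 65.9). These summits were 548 bp apart, so they do not compare the same position. The 72 h summit lay inside the wider of the 2 peaks of 36 h. Per unit of depth the ratio was 3.63, and among the 11 Neb regions called at both stages its intervals alone did not overlap. Of 54072 such regions over the genome, 5.03% had an interval at 72 h above that of 36 h. Its fold stood above 39.2% of the 36 h list and 92.5% of the 72 h list.

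The neighbours of region 20 also had more depth-scaled fragments at 72 h. Neb region 22, from 52231592 to 52232327, had 23 fragments at 36 h and 43 at 72 h, or 19.2 and 39.2 per unit of depth. Neb region 18, from 52222781 to 52223362, had 22 and 41, or 18.4 and 37.3. The ratios were 2.04 and 2.03, and the counting intervals overlapped in both cases. Their folds differed in direction. The fold of region 22 was 5.68 at 36 h and 14.0 at 72 h, with a local background of 1.60 times the genome background at 36 h and equal to it at 72 h. That of region 18 was 7.26 at 36 h and 6.98 at 72 h, with a local background equal to the genome background at 36 h and 2.77 times as high at 72 h. Region 13, from 52206156 to 52206741, was named after its values were seen and had a ratio of 2.31, from 16 fragments at 36 h and 34 at 72 h, with overlapping intervals. Depth-scaled fragments were higher at 72 h than at 36 h in 10 of 11 Neb regions (median ratio 1.42) and in 2 of 3 Ttn regions (median 1.33). The background percentage over all such regions was 67.8%, with a median ratio of 1.15.

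**Figure D4:**
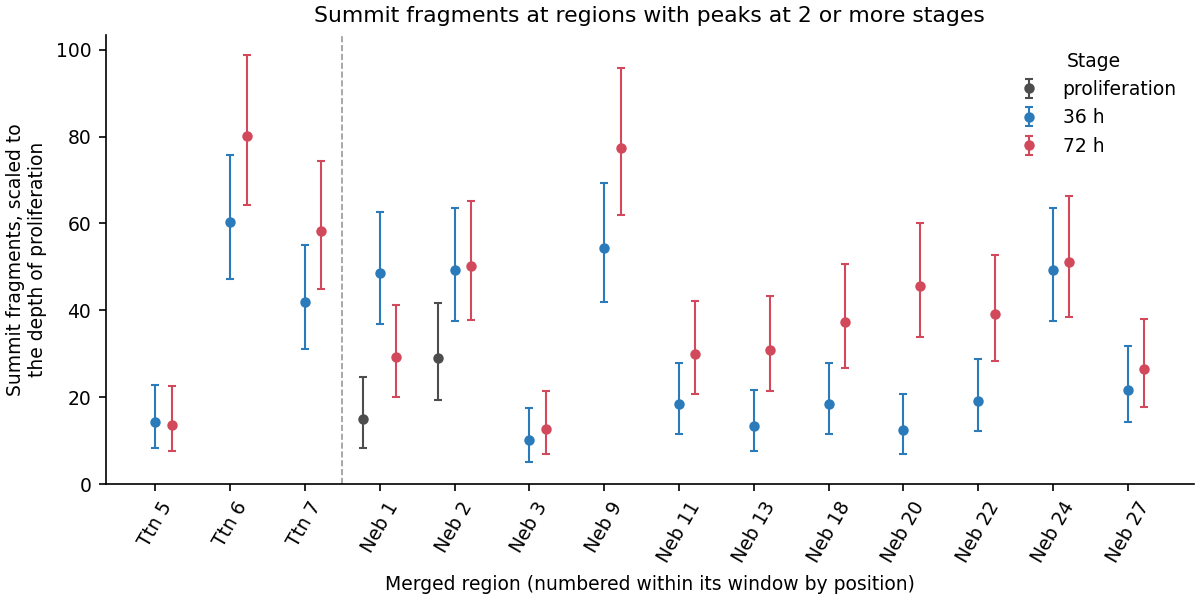
Summit fragments divided by relative ChIP depth (y axis) at the 14 Ttn and Neb regions called at 2 or more stages (x axis, numbered by position), with exact 95% Poisson intervals for counting error only. Neb regions 1 and 2 have a proliferation value, and region 20 is the only Neb region where the intervals of 36 h and 72 h do not overlap.

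Neb had 27 regions. Of these 9 were called at 36 h and 72 h and not in proliferation, against a background of 22.3%, and 15 at 72 h only, against 23.9%. There were 2 regions of all 3 stages, against 25.6%, and 1 of 36 h only, against 15.9%. No region was called in proliferation only (background 6.70%), in proliferation and 36 h (1.70%) or in proliferation and 72 h (3.95%). Among the regions of 72 h only, those of highest q rank were region 16 (52220150 to 52221039) with 27 fragments and region 14 (52206847 to 52207499) with 26. Region 14 lay 0.190 kb and region 16 1.95 kb from the nearest 36 h peak. Over the 15 regions of 72 h only, this distance ran from 0.016 kb (region 25) to 4.93 kb (region 5). For most of them it was under 1 kb, so they were not all separate from sites called at 36 h. The region of 36 h only was region 23 (52245932 to 52246102), with 14 fragments, 0.042 kb from a 72 h peak. When peaks were merged across gaps of up to 1 kb, the gained regions, those of 36 h and 72 h without proliferation, numbered 8 at Neb and 3 at Ttn.

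An absent call in proliferation can mean a signal under the calling cutoff. The bar used was the smallest −log10 p of the proliferation list (3.24), which is its least significant call. At this bar 9 fragments sufficed at the genome background, 12 at the median background of its peaks and 18 at the 95% quantile. At Ttn, all 4 peaks of 36 h and all 7 of 72 h had at least 9 depth-scaled fragments. At least 12 were reached by 4 of 4 and 6 of 7, and at least 18 by 2 of 4 and 3 of 7. Those past the highest bar were the peaks of regions 6 and 7. At Neb, 12 of 15 peaks of 36 h and 25 of 27 of 72 h had no overlap in proliferation, against background percentages of 57.8% and 59.8% over these lists. Of the 12 Neb peaks of 36 h, 12 reached 9 fragments, 9 reached 12 and 6 reached 18. Of the 25 of 72 h, 24, 22 and 12 did. Over all peaks of 36 h without overlap in proliferation, 98.9%, 71.0% and 29.1% reached 9, 12 and 18 fragments, and of those of 72 h 99.0%, 75.3% and 37.0%. Most later peaks of the genome therefore passed the lower bars as well.

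Stitching the peaks of a list across gaps of up to 12.5 kb joined the Neb peaks into a long cluster. At 72 h it ran from 52173461 to 52232327, with 23 peaks and 17.8 kb under peaks, more than 98.0% of the 23013 clusters of that list. At 36 h the same stretch was 2 clusters, of 8 peaks with 7.83 kb and of 4 peaks with 1.83 kb. The joining at 72 h rests on region 15 (52209484 to 52209732), a weak peak with 18 fragments. Without it, the gap from 52207499 to 52220150 exceeds 12.5 kb. In proliferation the cluster was the 4.19 kb site with 1.56 kb under peaks, more than 66.4% of 17462 clusters. The upper Ttn cluster spanned 14.9 kb at 36 h and 16.1 kb at 72 h, with 5.38 and 6.51 kb under peaks, more than 88.7% and 90.3% of clusters. A second Neb cluster reached beyond the upper window edge, spanning 52245932 to 52281028 at 36 h and 52246145 to 52280782 at 72 h. Its peaks covered 6.82 kb at the earlier of these stages, more than 91.6% of clusters, and 5.51 kb at the later one, more than 88.1%. The length under peaks was thus greater at 72 h in the lower Neb stretch and smaller in the upper cluster as a whole. The part of the upper cluster inside the window had 1.57 kb under peaks at 36 h and 2.03 kb at 72 h. Its part above the window had 5.25 kb at 36 h and 3.49 kb at 72 h.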

How the data were processed

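The deposited peak lists, 1 per H3K27ac library, are on mouse build mm9. BWA, MACS2 and deepTools are named in the submitters' processing notes, with no version and no setting. Each deposited row gives, by narrowPeak column order, a position, a score, a fold (a ratio of ChIP to background at the summit), a −log10 p, a −log10 q-value and a summit offset. The score deposited by the authors equalled 10 times the −log10 q, rounded down, in at least 99.9% of peaks and was not used. Inputs were not analysed on their own. The authors' fold, p and q served mainly to rank and describe peaks inside a list. Folds of the same region at both later stages are also printed for some regions. Common fold and −log10 q cutoffs were applied to all lists among the alternatives below.

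Fragments and local background were solved from fold and p (Python 3.11.15, scipy 1.17.1) with a pileup of whole fragments times a scale per library (0.673, 0.698 and 0.657), and 100% of deposited −log10 p values were matched within a relative tolerance of 0.0003. This recovery was tested on simulated peaks of known fragment number, scale and background, and returned the fragment number of nearly all of them. Relative ChIP depth was the lowest common background over that scale, which assumes 1 genome size setting for all runs and inputs as controls. Read totals were not among the sources, and the recovered fragments set the counting precision. Positions are counted from 1. Tiles ran from each chromosome's start to its last peak, so tiles in unmapped sequence have no peaks. The members, lists and named regions were chosen with earlier results of these data known. Named regions were those with a proliferation peak, the 6 of highest −log10 q at 36 h and at 72 h, the 3 widest and the 2 of highest −log10 q called at 1 stage only. The planned thinning to the proliferation depth was done by scaling fragment numbers, without random draws. Sarcomere partner genes and cell type markers were not analysed here, for want of mm9 gene positions.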

Additional observations from a re-analysis of the deposited data

How the results depend on the processing

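Peak number, length under peaks by stage and its differences, and gained regions, 20 values in all, were recomputed under 8 alternatives. Counting by summit position gives 18 of them (no gained regions) and merging across 1 kb gives 2 (gained regions). Of the alternatives, 2 (widened windows, and proliferation depth with background) were chosen after seeing the data. Of 140 values, 115 were within 1.5 times the value reported, 24 were not and 1 changed sign. Ttn peak number and length in proliferation were 0, and only widened windows could change them. In the other settings the Ttn differences from proliferation repeat the later lengths. The 115 therefore include values that could not move or that repeat others. With a −log10 q of at least 5, Ttn had 4 peaks at 72 h and 200 bp more under peaks at 72 h than at 36 h, and Neb had 2 peaks with 783 bp in proliferation and 16 peaks at 72 h. With a fold of at least 5 these were 4 peaks and 200 bp at Ttn, and 3 peaks with 966 bp and 15 peaks at Neb. With lists equal in number, Ttn had 3 peaks at 72 h and its length at 72 h minus 36 h was -2 bp, and Neb had 9 peaks at 36 h and 16 at 72 h. Fewer peaks enter under these 3 settings. Windows widened by 50 kb at each end take in other sequence. The Ttn window then had 10, 24 and 34 peaks with 3424, 18945 and 23346 bp in the order of the stages, differences of 15521 (36 h minus proliferation), 19922 (72 h minus proliferation) and 4401 bp (72 h minus 36 h), and 10 gained regions, and Neb had 2530 bp in proliferation. Scaling to the proliferation depth, alone or with its background, counting by summit position and merging across 1 kb moved no value past 1.5 times. Scaling can remove whole peaks and cannot add, shorten or split any. It therefore changes the length under peaks only through peaks that are lost, and does not test their widths. Leaving out a replicate and a paired analysis were not possible because each stage has 1 library. Depth limits the weak peaks most: the 16 fragments of Ttn region 4 carry an interval of 9.15 to 26.0.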

Other observations

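H3K27ac peaks continued beyond the upper edge of both windows. In the 50 kb above the Ttn window, the side of Ccdc141 in RefSeq gene order, there were 2 peaks in proliferation, 12 at 36 h and 18 at 72 h, with 0.351, 9.02 and 11.9 kb under peaks. This flank therefore had more under peaks at each stage than the whole Ttn window, and its highest summit had 76 fragments at 36 h and 89 at 72 h, compared with 72 and 88 inside the window. In the 50 kb below the Ttn window, the side of Plekha3, the values were closer between the stages, with 8, 8 and 9 peaks and 3.07, 4.27 and 4.61 kb.

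Above the Neb window, the side of Arl5a, the 50 kb flank held 1 peak in proliferation, 7 at 36 h and 8 at 72 h. The length under peaks was 0.967 kb in proliferation and was higher at 36 h (5.25 kb) than at 72 h (3.49 kb), the reverse of the order inside the window. The proliferation peak, from 52279484 to 52280450, had 51 summit fragments, more than any proliferation peak inside the window. The nearest later peaks lay 1.11 kb (36 h) and 1.31 kb (72 h) above the window's edge. The 50 kb below the Neb window had no peak at any stage.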
